A study of Drosophila melanogaster with 14 samples.

Results

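The 12 single adult flies sequenced after somatic knockdown of piwi were compared with each other to ask how many of them carried the same transposable element (TE) insertion. All 10974 insertion records of these 12 libraries were used, of 20426 records in the 14 libraries of the series. Records of 1 TE family on 1 chromosome with gaps of at most 500 bp were joined into a locus, and the flies holding each locus were counted. This gave 2462 loci of 118 families. Loci held by 1 or 2 flies are called rare, those held by 3 to 9 flies intermediate, and those held by 10 to 12 flies near-fixed.

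Every library came from white (w) mutant animals with the driver tj-GAL4, the repressor tubP-GAL80[ts] and sh-piwi, so the flies and both pools share all transgenes. The tj promoter drives GAL4 in the follicle cells of the ovary, GAL80[ts] blocks GAL4 at low temperature, and sh-piwi is a short hairpin against piwi. Per the labels, piwi-sKD animals were kept at 20°C except for 5 days at 25°C, and no-KD animals stayed at 20°C. The methods of the study place the flies in the second generation after the shift, so the flies themselves need not have been shifted. Their age, sex and parentage are not given in the sources used here. There were 12 single piwi-sKD flies read at 125 nt, 1 piwi-sKD pool and 1 no-KD pool, both read at 100 nt. The no-KD pool was made of 3 to 17 h embryos; for the piwi-sKD pool the labels name adult flies and the methods pooled embryos, and this was not settled. No single no-KD flies were analysed here, so the spectrum has no untreated counterpart, and each pool is 1 library without replicates. Whether the 12 flies share a mother is not stated, and p-values over flies measure the spread between these 12 libraries only.

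TEs fall into 3 classes by how they move. Endogenous retroviruses and other LTR retrotransposons (here all called ERVs, as in the study) copy themselves through RNA and integrate as double-stranded DNA flanked by long terminal repeats. Non-LTR retrotransposons reverse transcribe their RNA at the integration site, and DNA transposons are cut out and pasted elsewhere. An insertion absent from the reference genome can be carried by all members of a laboratory line, or segregate in it, or have arisen in a single animal or its parent. The number of flies that hold a locus describes where it lies between these extremes, as far as each library detects it.

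Rare loci were the most numerous. There were 1277 rare loci, 896 intermediate loci and 289 near-fixed loci. Of the rare loci 977 were private, meaning held by 1 fly, which is 39.7% of all loci. There were 300 loci at 2 flies, 186 at 3 flies and 154 at 4 flies, and each count from 5 flies onward lay between 80 and 126. At the upper boundary, 106 loci were held by 9 flies, 113 by 10 flies, 80 by 11 flies and 96 by all 12. The loci had a median width of 17 bp and a largest width of 1441 bp. Positions are those of the deposited lists on the dm6 genome and may be off by 1 base, since the lists do not say whether they count from 0 or from 1.

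**Figure D1:**
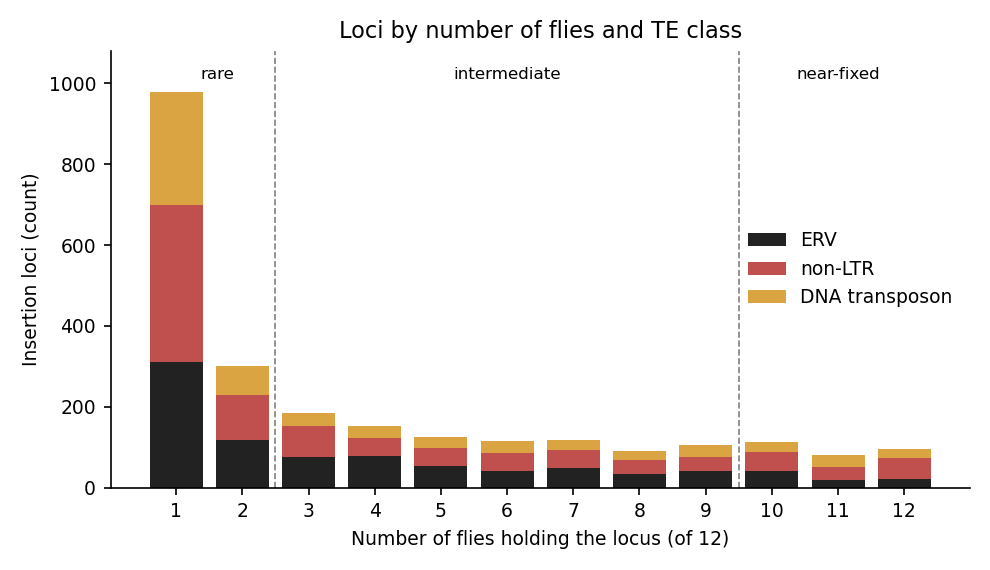
The number of insertion loci (vertical axis) is plotted against the number of flies holding the locus (horizontal axis), with the ERV, non-LTR and DNA transposon loci stacked and dashed lines between the rare, intermediate and near-fixed ranges. The private bar of 977 loci stands far above all others, and the counts from 5 to 12 flies lie between 80 and 126.

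The number of reads behind a record moved with the number of flies, so the low end of the spectrum rests on the thinnest evidence. Each deposited fly record has at least 2 supporting reads. In a private locus the holding fly had 2.14 reads on average and 88.0% of the values were exactly 2 reads, the lowest value listed. In a locus held by all 12 flies the mean was 10.8 reads per fly and 8.16% of the values were 2 reads. Within every fly the median support of rare loci was 2 reads, against 3 to 7 reads for near-fixed loci. The median support of near-fixed loci averaged 4.75 ± 1.16 reads (SD, n = 12 flies). The log2 ratio of rare over near-fixed support was -1.21 ± 0.35 and was negative in 12 of 12 flies (exact two-sided sign-flip permutation test over n = 12 flies, p = 4.88e-04, the smallest p that 12 flies allow). For intermediate over near-fixed support the log2 ratio was -0.87 ± 0.20, again negative in 12 of 12 flies (exact sign-flip permutation test, p = 4.88e-04). A locus is counted only where at least 2 reads support it, so support and the number of flies are partly linked by construction. How much of the rare range consists of more frequent loci that were missed in other flies was not tested. The methods of the study also name false calls from chimeric pieces of TE and genome made in library preparation. Their part in the rare range, or in the other ranges, was not tested either.

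Flies 10 and 12 stood apart by missing loci that the others held. The 12 flies held 489 to 1130 loci each (mean 811.6 ± 186, SD), with 1774 to 5901 supporting reads in all. Of the loci present in all 11 other flies, fly 10 held 79.3% (96 of 121, 95% Wilson interval 71.3 to 85.6%) and fly 12 held 80.7% (96 of 119, 72.7 to 86.8%). Fly 8 held 90.6% and the other flies 96.0 to 99.0%. The loci held are the same 96 in every fly, and they had the most reads per fly. These shares therefore do not carry over to loci with fewer reads. Of the 289 near-fixed loci, 81 were not listed in fly 10, 70 in fly 12, 32 in fly 8 and 2 in fly 5. These 2 flies also had the fewest supporting reads at the 96 loci that all flies held, 567 in fly 10 and 651 in fly 12, where fly 5 had 1689. With both flies left out, a choice made after the data were seen, the ERV, non-LTR, pericentric and pool comparisons below kept their direction and their side of the threshold.

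Flies with more supporting reads held more intermediate and near-fixed loci. Rare loci numbered 49 to 230 per fly (median 130.5), intermediate loci 221 to 613 (median 412.5) and near-fixed loci 208 to 287 (median 272.5). The number of intermediate loci followed the reads at the 96 shared loci with r = 0.922 (permutation p = 3e-05, adjusted p = 1.8e-04) and rho = 0.909 (permutation p = 1.5e-04, adjusted p = 3e-04). For near-fixed loci r was 0.810 (permutation p = 6e-05, adjusted p = 1.8e-04) and rho 0.851 (permutation p = 0.0010, adjusted p = 0.0015). For rare loci r was 0.706 (permutation p = 0.0104, adjusted p = 0.0125) and rho 0.580 (permutation p = 0.0524, adjusted p = 0.0524). These 6 correlations over n = 12 flies were computed after the data were seen and adjusted together by the Benjamini-Hochberg method. Without flies 5 and 10, the 2 farthest from the median number of reads, r was 0.864 for intermediate loci and 0.784 for near-fixed loci, and 0.625 for rare loci. For rare loci this no longer passed the threshold (permutation p = 0.0567, n = 10 flies), while r itself changed little. Near-fixed loci are chosen by their presence and the reads are taken at 96 of them, so that relation is partly built in.

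**Figure D2:**
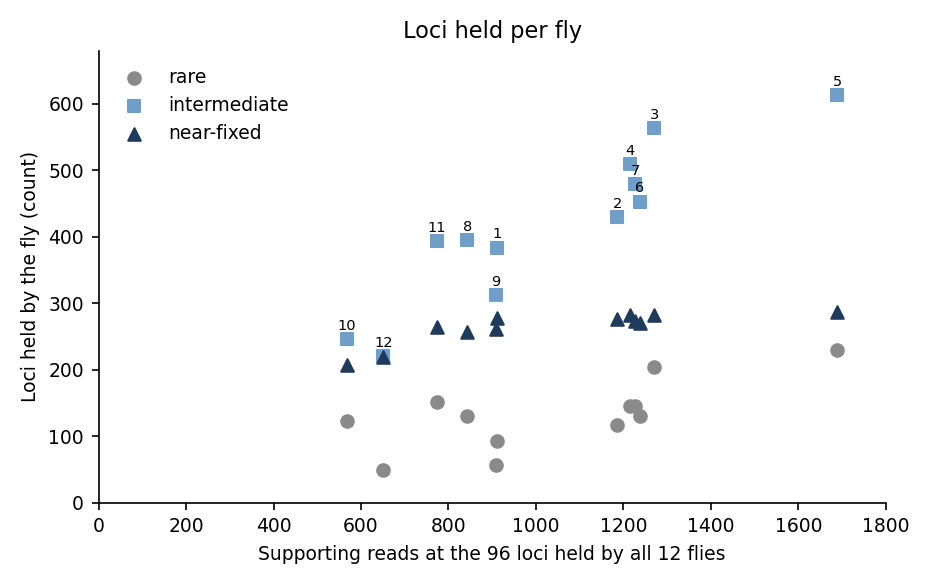
Each fly is shown by 3 points, its number of rare, intermediate and near-fixed loci (vertical axis), against its supporting reads at the 96 loci held by all 12 flies (horizontal axis), with fly numbers above the intermediate points. Fly 10 at 567 reads and fly 12 at 651 reads held the fewest near-fixed loci (208 and 219), and fly 5 at 1689 reads held the most loci of each kind.

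Pairs of flies were compared for the intermediate loci they shared. Over the 66 pairs, the correlation of presence and absence at intermediate loci ran from -0.07 to 0.14 with a median of 0.05. This is a description, since the choice of loci held by 3 to 9 flies itself sets where these values can lie, and subgroups of flies were not tested for. A pair shared 225 to 700 loci, or 26.8 to 47.2% of the loci held by either fly. Of the 66 pairs, 62 shared at least 1 locus that no other fly held, with a median of 4 and at most 17 such loci.

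ERVs were most represented in the middle of the spectrum. Of the 889 ERV loci, 431 were rare, 375 intermediate and 83 near-fixed. The 949 non-LTR loci divided into 499 rare, 321 intermediate and 129 near-fixed, and the 624 DNA transposon loci into 347, 200 and 77. ERVs thus made up 33.8% of rare loci, 41.9% of intermediate loci and 28.7% of near-fixed loci. By number of flies, the ERV share was 31.9% among private loci, highest at 4 flies with 50.6%, and 23.8% at 11 flies and 24.0% at 12 flies. Of the 96 loci held by all 12 flies, 50 were non-LTR, 23 ERV and 23 DNA transposon loci.

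Within each fly, ERVs took a larger share of rare than of near-fixed loci. The share over the 12 flies was 35.4 ± 5.32% of rare loci and 28.3 ± 0.740% of near-fixed loci (mean ± SD). The difference was 7.07 ± 5.20 percentage points, positive in 12 of 12 flies, with a range from 0.145 in fly 4 to 20.2 in fly 12 (exact sign-flip permutation test, p = 4.88e-04, adjusted p = 7.32e-04 over the 3 classes). Non-LTR elements went the other way, with 38.4 ± 3.32% of rare loci and 44.9 ± 0.507% of near-fixed loci. Their difference was -6.52 ± 3.20 points, negative in 12 of 12 flies (exact sign-flip permutation test, adjusted p = 7.32e-04). With loci joined over 20 bp the non-LTR difference was -0.377 points and no longer passed (exact sign-flip permutation test, p = 0.658), and the ERV difference was 3.99 points and did (p = 0.00220, same exact test). With at least 3 reads per record they were -21.5 points for non-LTR elements and 19.2 points for ERVs, both past the threshold. For DNA transposons the shares were 26.2 ± 4.44% of rare and 26.7 ± 0.726% of near-fixed loci, and the difference of -0.558 ± 4.33 points was smaller than its spread over the flies (exact sign-flip permutation test, adjusted p = 0.680).

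These class tests, and the tests of position, genes and pools below, have a limit that the flies do not remove. The 12 flies held nearly the same near-fixed loci, so the test measures how rare loci vary from fly to fly and leaves out the counting error of the 289 near-fixed loci. Counted once, the ERV share had a 95% Wilson interval of 31.2 to 36.4% in rare loci and 23.8 to 34.2% in near-fixed loci, and these overlap. The non-LTR intervals, 36.4 to 41.8% in rare and 39.0 to 50.4% in near-fixed loci, overlap as well. The interval for ERVs in intermediate loci, 38.7 to 45.1%, lay above both others. Support differed by class too, with 3.55 reads per fly and locus for ERVs, 4.83 for non-LTR elements and 4.36 for DNA transposons, and its part in the class shares was not tested.

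Rare loci were more often pericentric than near-fixed loci. Pericentric windows here are the ends of the 5 large chromosome arms next to the centromere, where repeats are dense. Of rare loci on these arms, 613 of 1198 (51.2%) lay in the windows, against 66 of 273 near-fixed loci (24.2%). Within flies the shares were 49.8 ± 6.50% and 24.7 ± 0.790% (rare and near-fixed, mean ± SD over n = 12 flies). The difference of 25.2 ± 6.67 points was positive in 12 of 12 flies, from 16.1 in fly 7 to 38.9 in fly 10 (exact sign-flip permutation test, p = 4.88e-04). With at least 3 reads per record it was 6.47 ± 10.2 points (exact sign-flip permutation test, p = 0.0400). That setting left 595 rare and 112 near-fixed loci, so it also moved loci between the ranges. The share was 53.1% among private loci, 15.5% at 10 flies and 28.9% at 12 flies. In the pericentric windows 66.3% of the 924 loci were rare and 7.14% near-fixed, whereas on the rest of the arms 41.7% of 1403 loci were rare and 14.8% near-fixed.

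Among the chromosomes, arm 2R had 61.0% rare and 7.01% near-fixed loci, and arm 2L 41.8% rare and 14.8% near-fixed loci. Arms 3L, 3R and the X chromosome lay between, with 50.1%, 51.3% and 50.3% rare loci. No test was made between arms. The mitochondrial genome held 4 loci, 2 of them rare and 2 intermediate. The 2 intermediate ones, of BS and Rt1a, were each held by 3 flies with 2 to 4 reads. All 4 had a same-family record in the no-KD pool. Whether the 4 are insertions or false calls was not tested, so false calls may not be confined to rare loci. ERVs took a smaller share of near-fixed than of rare loci on both sides of the pericentric boundary. Outside the windows ERVs made up 37.4% of rare, 47.5% of intermediate and 32.4% of near-fixed loci, and inside them 31.8%, 31.4% and 22.7%.

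Overlap with genes differed in a direction and with a call that depended on the settings. The annotation at hand gives the span of each gene, so exons and introns were not told apart. Of rare loci 52.4 ± 5.47% overlapped the span of an annotated gene, against 55.9 ± 0.599% of near-fixed loci (mean ± SD over n = 12 flies). The difference of -3.50 ± 5.59 points was negative in 10 of 12 flies and did not pass the test (exact sign-flip permutation test, p = 0.0557). It passed with gaps of 20, 100 or 1000 bp (-3.45, -3.57 and -4.34 points), with near-fixed taken as all 12 flies (-4.87 points) and without flies 10 and 12 (-3.99 points). It also passed without fly 1, 8, 11 or 12 alone, from -5.32 points without fly 1 to -3.60 points without fly 12. Outside the pericentric windows it was 0.304 ± 11.4 points, far smaller than its spread (exact sign-flip permutation test, p = 0.927). Inside them it was 3.84 ± 4.52 points (exact sign-flip permutation test, p = 0.00879). The part of position on the arm in the main difference was not tested.

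Most loci held by several flies were also listed in the pools, and most private loci were not. A same-family record within 500 bp in the no-KD pool was found for 27.6% of private loci, 67.7% of loci held by 3 flies and 95.8% of loci held by all 12. Within flies, 35.5 ± 6.62% of rare loci and 94.2 ± 0.804% of near-fixed loci had such a partner. That difference was -58.8 ± 6.89 points, negative in 12 of 12 flies (exact sign-flip permutation test, p = 4.88e-04). It was -27.9 points with at least 3 reads per record and -32.4 points with loci joined over 20 bp, both past the threshold. For the piwi-sKD pool the shares were 40.4 ± 6.90% of rare and 94.9 ± 0.611% of near-fixed loci, a difference of -54.5 ± 7.30 points (12 of 12 flies negative, exact sign-flip permutation test, p = 4.88e-04), and -27.3 and -30.3 points under these 2 alternatives. The pools were prepared and read elsewhere, with shorter reads, and a locus at low frequency need not have been sampled in them. A locus held by most flies is more likely to be listed in a pool of the same line. The direction of both differences was thus largely set by the ranges, and the p-values add little to it.

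In neither pool were 733 rare loci (57.4%), 134 intermediate loci (15.0%) and 12 near-fixed loci (4.15%). The piwi-sKD pool alone listed 128 rare loci, 46 intermediate loci and 5 near-fixed loci. The no-KD pool alone listed 69, 21 and 3. The piwi-sKD pool holds 5096 records and the no-KD pool 4356, so these counts follow unequal lists and no test was made between them.

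**Figure D3:**
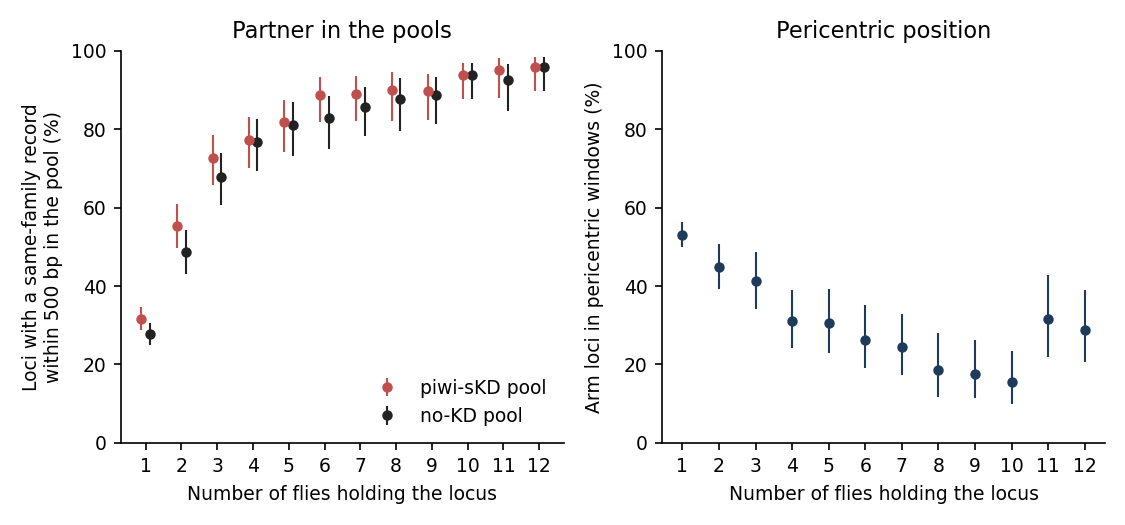
Left, the share of loci with a same-family record within 500 bp in the piwi-sKD pool (red) and the no-KD pool (black) by number of flies holding the locus. Right, the share of loci on the 5 large arms that lay in pericentric windows; points are shares and bars 95% Wilson intervals. The pool share climbs steeply up to 5 flies and levels off near 95%, and the pericentric share falls to 15.5% at 10 flies, with wide bars at 11 and 12 flies.

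Families differed widely in where their loci lay. Of the 118 families, 51 had no near-fixed locus, among them 30 of 57 ERV families, 12 of 38 non-LTR families and 9 of 23 DNA transposon families. In 42 families at least 1 locus was held by all 12 flies, and 15 families had rare loci only. Among the 35 families with at least 20 loci, which hold 1812 loci, the rare share ran from 17.9% in mdg3 to 90.0% in gypsy2 with a median of 50.0%. No test between families was made, because the flies share the loci; the intervals below cover counting error only.

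**Figure D4:**
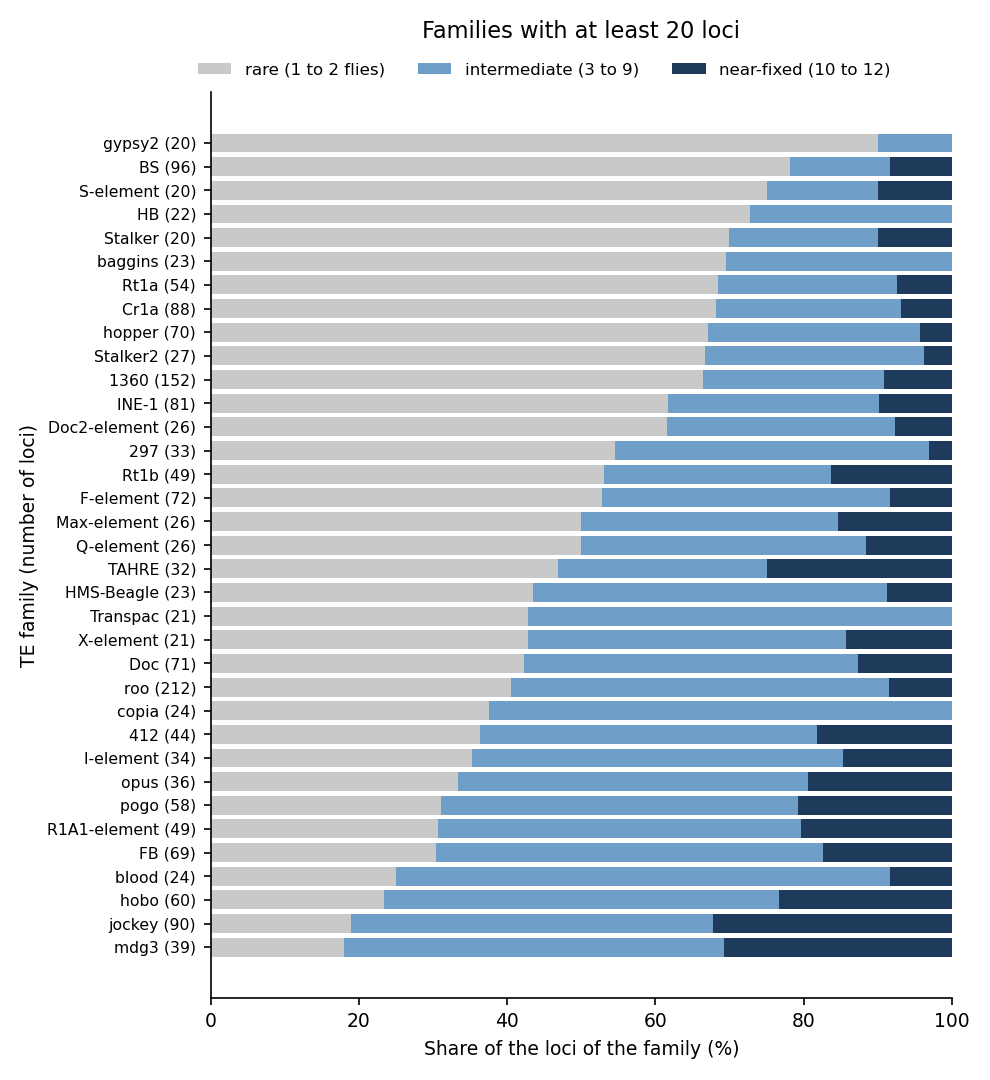
Bars give the share of rare, intermediate and near-fixed loci (horizontal axis, percent) for each of the 35 families with at least 20 loci (vertical axis, number of loci in parentheses), ordered by rare share. The rare share runs from 90.0% in gypsy2 at the top to 17.9% in mdg3 at the bottom, and gypsy2, HB, baggins, Transpac and copia have no near-fixed locus.

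Among the ERVs, roo, an LTR element of the BEL/Pao group, was the family with most loci. Its 212 loci were mainly intermediate, 108 of them, with 86 rare and 18 near-fixed. Only 2 were held by all 12 flies and 17 of 210 arm loci were pericentric. The mdg3 family lay at the other end, with 7 rare, 20 intermediate and 12 near-fixed loci of 39 (30.8% near-fixed, 95% Wilson interval 18.6 to 46.4%). The blood family was concentrated in the middle, with 6 rare, 16 intermediate and 2 near-fixed loci. The gypsy2 family was nearly all rare, with 18 of 20 loci in 1 or 2 flies and 2 intermediate, and 92.3% of its fly values were 2 reads. Stalker had 14 rare, 4 intermediate and 2 near-fixed loci. In copia, which gives its name to another group of LTR elements, 9 loci were rare, 15 intermediate and none near-fixed. All families of that group together had 37 loci, of which 0 were near-fixed (upper 95% Wilson limit 9.41%).

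Of 9 further ERV families, 2 had at least 20 loci, Stalker with 20 and 412's total of 44. In 412's case 16 loci were rare, 20 intermediate and 8 near-fixed. The 1 locus in all 12 flies lay in the span of pyd at 3R 8867278 to 8867450, with 2 to 13 reads per fly (median 7). Idefix had 9 rare and 6 intermediate loci, and 10 of its 14 arm loci were pericentric. Circe had 2 rare, 1 intermediate and 3 near-fixed loci and gypsy8 2 rare and 3 intermediate loci. All 6 Circe loci and all 5 gypsy8 loci were pericentric. The 2 gypsy loci were both intermediate, 1 in the span of Gsc in 9 flies and 1 in the span of bun in 8 flies.

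The 8 ZAM loci included no near-fixed locus. ZAM is a retrovirus-like element with an env gene. Its most frequent locus, at 3L 24176116 to 24176128 in the span of Snap25, a synaptic vesicle fusion gene, was held by flies 1, 3, 4, 6, 8 and 11 with 2 or 3 reads each. It was listed in the piwi-sKD pool and not in the no-KD pool. The other intermediate ZAM locus, at 2R 19841917 to 19841969, was held by flies 3, 4, 5 and 12 with 7, 2, 5 and 2 reads, and both pools listed it. The study used a ZAM insertion at nearly this position, printed for another arm, as a PCR control carried by all its libraries. If it is the same site, a locus not listed in a fly may still be present in it. Of the 6 rare ZAM loci, 4 were private and 2 were held by 2 flies, always at 2 reads. The private ones lay at 2L 23319857 in fly 9, at 2R 1809234 in fly 2, at 3L 24168836 in fly 11 and at X 10241011, in the span of Hk, in fly 11. The study reported a ZAM insertion in Hk at nearly this position as de novo. Its PCR found that insertion in the piwi-sKD offspring and not in their no-KD ancestors. The PCR is not part of the lists analysed here. The no-KD pool listed only the one on 2R among these 4. At 3L 24168836 the private locus also lay in Snap25, in fly 11, which held the frequent Snap25 locus as well. Both gtwin loci were private and rested on 2 reads, at 2R 13615456 in fly 5 and at X 21843108 in fly 4. The gtwin locus on 2R was listed in both pools, and the one on X in the piwi-sKD pool and not in the no-KD pool. The 7 HMS-Beagle2 loci were all private, spread over 6 flies with 2 of them in fly 8, and 6 of the 7 rested on 2 reads.

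Among non-LTR elements, jockey and BS, which belong to the same clade of LINE-like elements, lay at opposite ends. The jockey family had 17 rare, 44 intermediate and 29 near-fixed loci of 90. Its near-fixed share of 32.2% (23.5 to 42.4%) was the highest of the 35 larger families, 9 loci were in all 12 flies, and 1 of 90 arm loci was pericentric. The BS family had 75 rare, 13 intermediate and 8 near-fixed loci of 96, a rare share of 78.1% (68.9 to 85.2%). Of the 75 rare BS loci, 65 were private, with 0 to 11 per fly and a median of 4.5. Few were pericentric, 7 of the 73 on the arms. They also had few partners in the pools, 5 in the no-KD pool and 7 in the piwi-sKD pool. Their support was as thin as in other rare loci, with 87.1% of fly values at 2 reads.

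Other families with a high rare share had a different position. The 60 rare loci of the non-LTR family Cr1a included 48 of 57 arm loci in the pericentric windows. The pattern recurred in 1360's 152 loci, of which 101 were rare, 37 intermediate and 14 near-fixed. This DNA transposon is related to the P element, and 74 of its 84 rare arm loci were pericentric. Rare loci of hopper, another DNA transposon, resembled BS in this respect, with 9 of 46 in the windows and 4 of 47 with a no-KD partner. Of the 47, 35 overlapped a gene span. Over all rare loci these 3 shares were 51.2%, 32.6% and 52.3%. INE-1, an old and short non-autonomous element, had 50 rare, 23 intermediate and 8 near-fixed loci. S-element had 15 rare, 3 intermediate and 2 near-fixed loci, and HB 16 rare and 6 intermediate. Doc had 30 rare, 32 intermediate and 9 near-fixed loci, and F-element 38, 28 and 6.

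Among DNA transposon families with at least 20 loci, hobo, pogo and FB had the highest shares of intermediate loci, 53.3%, 48.3% and 52.2%. The hobo family had 14 rare, 32 intermediate and 14 near-fixed loci, and pogo 18, 28 and 12. FB, the foldback element with long inverted repeats, had 21 rare, 36 intermediate and 12 near-fixed loci, and 7 of these were in all 12 flies. Of the 69 FB loci, 66 overlapped a gene span (95.7%), where 55.1% of all 2462 loci did. This FB value was noticed after the data were seen and was not tested. The telomere element TAHRE, which maintains chromosome ends, had 15 rare, 9 intermediate and 8 near-fixed loci, with 1 of 32 in a gene span.

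Several of the best supported loci held by all 12 flies lay in the ribosomal DNA. R1 and R2 are non-LTR elements that integrate into the 28S ribosomal RNA gene, and 13 of the 96 loci held by all flies belonged to R1A1-element or R2-element, each of the 13 on the X chromosome. The R2-element locus at X 23220087 to 23220694 had 29 to 112 reads per fly (median 55), and its lowest value was the highest among the 96 loci. The R1A1-element locus at X 23217029 to 23217528, in the span of an annotated 28S pseudogene, had 28 to 90 reads (median 49). Ribosomal units are repeated, so each of these loci can collect reads from many copies.

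Of the loci held by all flies inside gene spans but outside the ribosomal DNA, a hobo locus in the span of nAChRalpha3, a nicotinic acetylcholine receptor subunit, at X 8295632 to 8296291, had 17 to 62 reads per fly (median 46.5). An mdg3 locus in hiw, a ubiquitin ligase of neurons, at X 15012529 to 15012655 had 9 to 22 reads (median 15). An FB locus in rdgA, a diacylglycerol kinase of photoreceptors, had 7 to 29 reads (median 18), 1360's locus in Pxd 5 to 19 reads (median 11.5) and an opus locus in bun 5 to 17 reads (median 9.5). All 5 were listed in both pools. In 4 of these 5 loci fly 10 had the lowest value, alone or tied with another fly.

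A G6 locus in the span of flamenco, the piRNA cluster that silences ERVs in follicle cells, was held by all 12 flies and listed in neither pool. It lay at X 21715506 to 21715778 with 5 to 30 reads per fly (median 14.5). It is 1 of 12 near-fixed loci listed in neither pool, of which 4 were in all 12 flies. The other 3 of these 4 were a G6 locus at X 21954593 to 21954890 with 2 to 14 reads, an FB locus at X 22354363 to 22354532 with 2 to 11 reads and a pogo locus at 3L 3051804 to 3051993 with 2 to 7 reads. For 7 of the 12, neither pool listed an insertion of any family within 500 bp.

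Of the 7 P-element loci, 6 were near-fixed and 1 was private. The family was singled out after its values were seen. P-element ends carry most Drosophila transgenes. The locus at 2L 19463975 to 19464099 lay 168 bp from tj, the gene whose promoter drives GAL4 in these flies, and had 10 to 41 reads (median 23.5) in 12 of 12 flies. The locus at 3R 29806754 to 29807277 in the spans of ncd and ca had 11 to 59 reads (median 28.5), also in all 12. At X 353647 to 353774 in CG32816 there were 4 to 29 reads (median 9), and at X 2789954 to 2789996 in kirre 2 to 15 reads (median 9). The locus at 3L 11070434 to 11070675 in Mocs1 was held by 11 flies, all but fly 12. The one at X 10923802 to 10923877, 95 bp from v, was held by 10 flies, all but flies 8 and 11. All 6 were listed in both pools. The private locus, at 3R 29806248 in ncd, had 2 reads in fly 7 and lay on the same gene as a near-fixed one. Which of these loci are transgenes cannot be read from the labels.

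**Figure D5:**
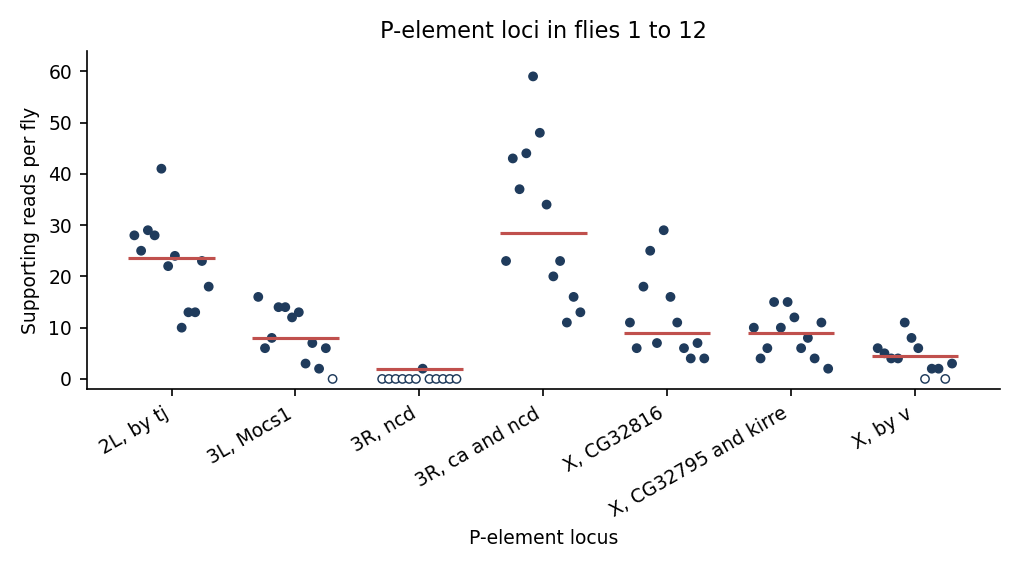
Supporting reads (vertical axis) at each of the 7 P-element loci (horizontal axis) are shown for flies 1 to 12 from left to right within a locus; open circles at 0 are flies in which the locus is not listed and the red line is the median of the holding flies. The locus by tj (10 to 41 reads) and the one in ncd and ca (11 to 59 reads) are held by all 12 flies, while the private ncd locus has 2 reads in fly 7 alone.

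Some intermediate loci of the large arms outside the pericentric windows were as well supported in the flies that held them as near-fixed loci. A Max-element locus at 2R 18259637 to 18259726 had 8, 10, 7, 6, 10, 6, 9 and 2 reads in flies 1 to 7 and fly 10, and was not listed in the other 4. A pogo locus in Pvr, a receptor tyrosine kinase, was held by 9 flies with 2 to 9 reads (median 7), and an mdg3 locus in CG15711 by 8 flies with 3 to 11 reads (median 7). A jockey locus in GluRIA, a glutamate receptor, was held by 8 flies with 4 to 13 reads (median 5.5). The Max-element locus was not listed in flies 8, 9, 11 and 12, and the pogo locus in flies 8, 9 and 12. The mdg3 locus was not listed in flies 1, 8, 10 and 11, and the GluRIA locus in flies 6, 9, 10 and 11. A jockey locus at 2L 14038530 to 14038848 was not listed in flies 3, 8, 9 and 12. Flies 8 to 12 had the fewest supporting reads at the loci held by all 12 flies, 567 to 908. In flies 1, 3 and 6 these reads numbered 911, 1270 and 1238. Whether the loci were absent from these flies or missed in them was not tested. A roo locus at 2R 15070710 to 15070723 was held by flies 4, 5 and 6 with 6, 7 and 2 reads, and was listed in the piwi-sKD pool and not in the no-KD pool.

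No rare locus had more than 6 reads in 1 fly. The best supported was a Doc locus at X 13004037 to 13004101 in rsh, with 6 reads in fly 1 and 6 in fly 2, listed in both pools. A jockey locus at X 4366282 had 6 reads in fly 3 and 4 in fly 7. An INE-1 locus on chromosome 4 at 180444 to 180461 had 5 reads in fly 5 and 4 in fly 6 and was in neither pool, and another in Sox102F had 3 reads in fly 1 and 5 in fly 6. An S-element locus in Myo81F at 3R 613042 had 3 reads in fly 3 and 5 in fly 6. These 5, ranked by their highest value in a fly and then by total reads, were each held by 2 flies.

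Every fly held loci on the Y chromosome, and the labels give no sex. There were 44 Y loci, 27 rare, 13 intermediate and 4 near-fixed, with 7 to 15 per fly. A rover locus in the span of kl-3, a male fertility gene, at Y 484898 to 485221 was held by all 12 flies with 4 to 32 reads (median 15). At near-fixed loci of the X chromosome outside the pericentric window, the mean support was 1.53 ± 0.143 times that of the autosomes (SD, n = 12 flies, from 1.30 to 1.79). The mean over these X loci was 4.57 to 11.2 reads per fly. It includes the hobo locus in nAChRalpha3 with 17 to 62 reads, which raises it. The sex of the flies was not tested.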

How the data were processed

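Genomic DNA of 12 single piwi-sKD flies, 1 piwi-sKD pool and 1 no-KD pool was sequenced as paired-end reads. The authors mapped reads to dm6 with BWA (0.7.10-r789 for flies, 0.7.5a-r405 for pools) and called insertions with T-lex de novo. The deposited support of the flies and of the piwi-sKD pool is a count of reads, at least 2 per record. For the no-KD pool the authors deposited a scaled signal instead of whole reads, and only the presence of its records was used. Genome coverage per fly is not given in the sources used here, so supporting reads stand for depth. The authors' subsampled pool data were not used here, and 0 columns were left unused.

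Groups were taken from the sample titles. Loci were built as described above. Pericentric windows were X above 22 Mb, 2L above 22 Mb, 2R below 5.5 Mb, 3L above 23 Mb and 3R below 4.5 Mb. Families were assigned to 3 classes by hand from their names. Gene spans came from RefSeq on dm6. Each fly gave 1 value per measure, and differences were tested by all 4096 sign flips over the 12 flies, two-sided, after a check on simulated data, with Benjamini-Hochberg adjustment over the 3 classes. Correlations used 100000 permutations. Wilson intervals are at 95% and cover counting error only. Analyses ran in Python 3.11.15 with numpy 2.4.6, pandas 2.3.3 and scipy 1.17.1.

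The members, lists and thresholds were chosen with earlier results of these data known. The families named were the 10 with most loci, 9 further ERV families listed by hand, and the 5 at each end of the rare share and the 5 with the highest near-fixed share among families of at least 20 loci. The loci named were the 10 best supported of those in all 12 flies and in gene spans, the 10 intermediate loci of the 5 large arms outside pericentric windows with the highest median support, and the 5 rare loci with the highest support, and all ZAM and gtwin loci, of which the text describes the clearest. Other families and loci in the text, such as the P element, FB in genes, the Y chromosome and loci in neither pool, were chosen after their values were seen.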

Additional observations from a re-analysis of the deposited data

How the results depend on the processing

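The ERV difference between rare and near-fixed loci kept its direction and its side of the threshold under all 24 alternatives (3.99 to 19.2 points), as did the pericentric difference under 22 (6.47 to 28.1 points), the no-KD partner difference under 22 (-67.0 to -27.9 points), the piwi-sKD partner difference under 22 (-62.9 to -27.3 points) and both ratios of support under 23. The smallest pericentric and partner differences came with at least 3 reads. The direction of the partner differences was largely set by the ranges, and support was partly linked to the number of flies by construction. That the partner differences and support ratios stayed stable therefore adds little. Joining over 20 bp in place of 500 bp, which splits loci by construction, gave 2608 rare and 185 near-fixed loci, a non-LTR difference of -0.377 points that no longer passed (exact sign-flip permutation test, p = 0.658, n = 12), and a DNA transposon difference of -3.61 points that did (p = 0.00220, exact test). A minimum of 3 reads left 595 rare and 112 near-fixed loci, so counts of loci rest on records of 2 reads. Near-fixed as 12 flies only means 96 loci.

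The DNA transposon difference had no stable direction. It was positive with any family joined (0.599 points), with at least 3 reads (2.25), with rare as 1 fly (1.17), with near-fixed as 12 flies (2.23) and inside the pericentric windows (3.38), and -3.24 outside them. The gene-span difference was -3.45, -3.57 and -4.34 points with gaps of 20, 100 and 1000 bp and -4.87 with near-fixed as 12 flies, all past the threshold, as was -3.99 without flies 10 and 12. It was 3.84 inside the pericentric windows and 0.304 outside them, the latter far smaller than its spread (SD 11.4). The cause was not tested. Leaving out 1 fly at a time gave -5.32 to -2.95 points, past the threshold without fly 1, 8, 11 or 12.

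No locus was wider than 2000 bp, so removing such loci changed nothing. The alternatives without flies 10 and 12, by pericentric window and with mean reads were added after the data were seen. Rare and near-fixed values were paired within each fly, but flies could not be paired with the pools. Only the single flies carry replicate numbers, and each pool is 1 library. Detection at 2 reads limits all counts. These lists alone cannot tell private loci apart from loci missed in the other flies or from false calls.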

Other observations

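Several ERV families had pairs of loci a few kilobases apart, chosen after the data were seen. Among 412's loci there were 3 neighbouring pairs with gaps between 1 and 12 kb, and their gaps were 7455, 7534 and 7597 bp. They lay in the span of Nop60B on 2R (24177277 and 24184732), in Deaf1 on 3L (19820326 and 19827862) and on 3R (30375578 and 30383176). None of these 6 loci was listed in the no-KD pool, and both loci of a pair were rare in 2 of the 3 pairs. Flies 2 and 3 held both loci of the third pair, and fly 2 held both Deaf1 loci. No fly held both Nop60B loci. The roo family had 8 such pairs, with gaps from 2224 to 11599 bp, of which 5 lay between 8677 and 9132 bp. The copia family had 1 pair, 5243 bp apart, and Transpac 1 pair, 5269 bp apart, and all 4 of these loci were private. The gaps were not compared with the lengths of the elements. Whether the loci of a pair are separate insertions, arose together or mark a single element was not tested. Each of them counts as its own locus in the spectrum.

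Chromosome 4, which is small and rich in repeats, held 87 loci, 50 rare, 25 intermediate and 12 near-fixed. Its TAHRE loci near the end of the deposited sequence included 3 held by all 12 flies, at 1278475 to 1279340, 1281236 to 1281587 and 1295019 to 1295776. A Tc1 locus in CG11360 was held by all flies but fly 7, with 9 to 46 reads (median 19).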
